A study of Mus musculus with 11 samples.

Results

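The genes described here are 9 genes of the T cell receptor complex and its first signalling step, namely the CD3 chains (Cd3d, Cd3e and Cd3g), the zeta chain (Cd247), the coreceptors (Cd4, Cd8a and Cd8b1) and the kinases Lck and Zap70. They were taken by name from a table of 49315 genes, and each of the 9 had a row. The filter on low counts left 18375 genes for testing, the 9 among them, but Cd8a and Cd8b1 passed only through the ΔTreg libraries, since no other library held more than 3 counts of either. The other 7 members had at least 16 counts in every library.

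Whole skin of 11 neonatal Foxp3-DTR mice was sequenced in bulk, with 1 library per mouse, to compare early, late and continuous loss of regulatory T cells (Tregs). These mice express the diphtheria toxin (DT) receptor under the Foxp3 promoter, so that DT kills the cells that use this promoter, in every organ. Total counts ranged from 23377571 to 34159435 per library. The labels place all 11 mice in 1 batch.

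Every group had the same Foxp3-DTR genotype, and the groups differed in treatment and age. The 2 control mice received PBS, and their day of harvest is not in the labels. The study describes its comparisons with control as age-matched, on P9 for ΔETreg and on P13 for ΔLTreg. The 3 ΔETreg mice received 2 doses of DT at 30 ng per g, on postnatal day 6 (P6) and P8, and skin was taken on P9. The 3 ΔLTreg mice received 2 doses, on P10 and P12, and the 3 ΔTreg mice received 4 doses, from P6 to P12, with harvest on P13 in both groups. Age and treatment therefore cannot be told apart between ΔETreg and the groups taken on P13, and may not be separable from control. Comparisons with control share the same 2 control libraries.

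The CD3 chains and zeta carry the signal of both the alpha-beta and the gamma-delta T cell receptor, neither of which can signal alone. CD4 binds MHC class II and CD8 binds MHC class I, and Lck, held at these coreceptors, phosphorylates the CD3 and zeta chains so that Zap70 can dock. Mouse epidermis holds a resident population of gamma-delta T cells, which carry CD3 but mostly neither coreceptor, so that CD3 transcripts in skin do not by themselves stand for CD4 or CD8 T cells.

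Among the 7 members with counts in every library, 7 were higher in ΔTreg than in control (edgeR quasi-likelihood test with Benjamini-Hochberg adjustment, threshold 0.05), where 12.1% of all genes tested were called higher. Their log2 fold changes ran from 1.13 for Cd247 to 2.83 for Cd4, with a median of 2.03 beside -0.01 for all genes tested. The same 7 were higher in ΔTreg than in ΔETreg (13.2% of all genes called higher), with a median of 1.83. Against ΔLTreg, 6 of the 7 were higher (10.7% of all genes called higher), and the remaining member was Cd247. Tests of Cd8a and Cd8b1 are not counted here, since these genes were tested only because they were high in ΔTreg. In bulk skin, more T cells and more RNA per T cell cannot be told apart.

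**Figure D1:**
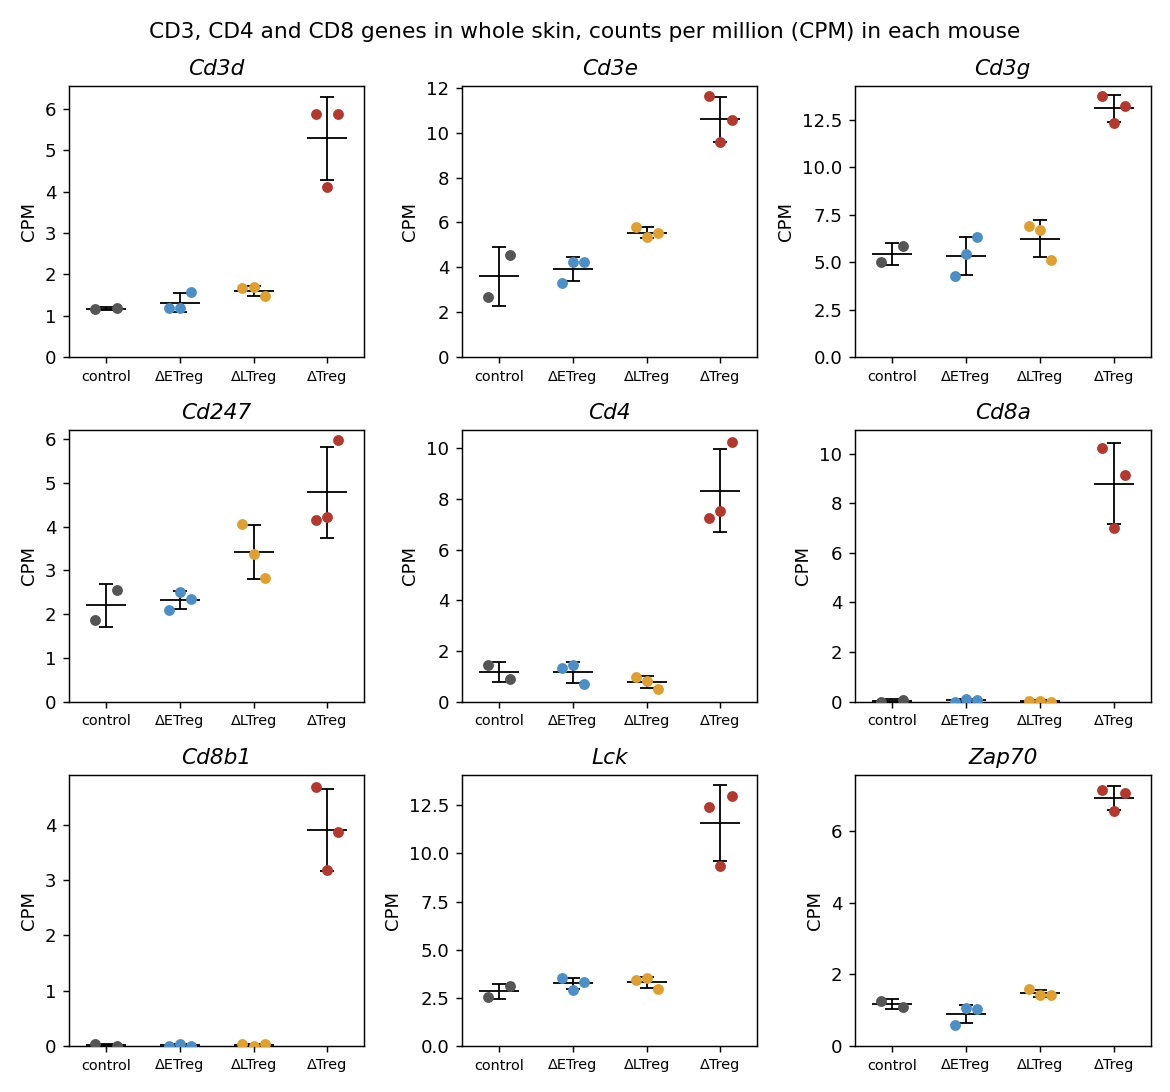
Level in CPM (counts relative to the TMM-scaled size of the library) of the 9 genes in each mouse, 1 panel per gene with its own linear axis from 0. Points are mice, horizontal marks are group means and bars are SD (n = 2 for control and 3 for each other group). The 3 ΔTreg mice lie above the other 8 mice in every panel, by the smallest margin for Cd247. Ranges without overlap and higher in ΔTreg were seen for 26.8% of all genes against control, 19.2% against ΔLTreg and 23.4% against ΔETreg.

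The 3 CD3 chains are encoded side by side on chromosome 9 of GRCm38, with Cd3g and Cd3d on opposite strands 1354 bp apart and Cd3e 11400 bp beyond Cd3d. Cd3d, the delta chain, stood at 1.16 and 1.20 CPM in control, at 1.18, 1.18 and 1.58 CPM in ΔETreg, at 1.67, 1.69 and 1.47 CPM in ΔLTreg, and at 5.87, 4.13 and 5.87 CPM in ΔTreg. Even the lowest ΔTreg mouse was above the highest mouse of the other groups. The level in ΔTreg exceeded control by a log2 fold change of 2.16 (SE 0.215; edgeR adjusted p = 5.88e-05) and ΔLTreg by 1.71 (SE 0.176; edgeR adjusted p = 8.28e-05).

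Cd3e, the epsilon chain, which pairs with both delta and gamma, was measured at 2.66 and 4.54 CPM in control, 3.31, 4.24 and 4.24 CPM in ΔETreg, 5.81, 5.33 and 5.51 CPM in ΔLTreg, and 11.6, 9.59 and 10.6 CPM in ΔTreg. The ΔTreg mice again lay above all others, and the ΔLTreg mice lay between them and the other groups without overlap. The log2 fold change of ΔTreg was 1.56 over control (SE 0.201; edgeR adjusted p = 0.000321) and 0.93 over ΔLTreg (SE 0.167; edgeR adjusted p = 0.00302). The step from control to ΔLTreg, 0.63 on the log2 scale (SE 0.202), did not pass the test (edgeR adjusted p = 0.106). Without control replicate 2, the higher of the pair, the step was 1.06 and passed (edgeR adjusted p = 0.0270), and over the mice left out in turn the log2 value ran from 0.29 to 1.06.

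Cd3g, the gamma chain, was the most abundant member, at 5.43 ± 0.600 CPM in control (SD, n = 2) and 13.1 ± 0.710 CPM in ΔTreg (SD, n = 3). In ΔETreg and ΔLTreg it stood at 5.34 ± 1.01 and 6.24 ± 0.962 CPM (SD, n = 3 each). These 2 groups overlapped with control, while the 3 ΔTreg mice, at 12.3 to 13.7 CPM, did not. The log2 fold change over control was 1.27 (SE 0.173; edgeR adjusted p = 0.000447). Fold changes of the 3 chains in ΔTreg therefore ranged from 1.27 to 2.16, and the differences between chains were not tested.

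Cd247 encodes zeta, the chain with the most signalling motifs, which NK cells also use. It was present at 1.86 and 2.55 CPM in control, 2.09, 2.5 and 2.36 CPM in ΔETreg, 4.05, 3.37 and 2.82 CPM in ΔLTreg, and 4.16, 4.22 and 6.0 CPM in ΔTreg. The lowest ΔTreg mouse stood just above the highest ΔLTreg mouse. ΔTreg exceeded control by 1.13 on the log2 scale (SE 0.229; edgeR adjusted p = 0.00519), but without control replicate 1 the adjusted p of the same edgeR test was 0.0513, at a log2 fold change of 0.91. Against ΔLTreg the log2 fold change was 0.49 (SE 0.191; edgeR adjusted p = 0.107).

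Set against the CD3 chains, Cd247 counts were lower in ΔTreg than in control and ΔLTreg without overlap, and overlapped with ΔETreg. The log2 ratio of Cd247 to the summed Cd3d, Cd3e and Cd3g counts of a mouse, with 0.5 added to each, averaged -2.61 in ΔTreg, beside -2.21 in control, -2.18 in ΔETreg and -1.98 in ΔLTreg. Over the 4 groups the two-sided exact permutation test gave p = 0.0318 (adjusted p = 0.0381 over the 6 planned ratios, by Benjamini-Hochberg). The test was not passed with Cd3e alone as the denominator (exact p = 0.128), nor without control replicate 1, ΔETreg replicate 1 or 2, or any 1 of the ΔLTreg mice (exact p from 0.00889 to 0.0703 over all mice left out). Cd247 is also the member least cleanly counted, since 60.3% of its exon length is shared with other genes, 3007 bp with Pou2f1 on the opposite strand and 206 bp with Gm16565 on its own strand. Pou2f1 stood between 25.8 and 31.4 CPM in all 11 mice, and no strand setting is stated for the counting, so reads from the shared bases cannot be assigned to either gene.

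Among the 7 members, Cd4 had the largest log2 fold change of ΔTreg over control and over ΔLTreg, and Zap70 the largest over ΔETreg, at 2.96 beside 2.83 for Cd4. Cd4 was measured at 1.44 and 0.876 CPM in control, 1.32, 1.45 and 0.685 CPM in ΔETreg, 0.984, 0.823 and 0.501 CPM in ΔLTreg, and 7.25, 7.51 and 10.2 CPM in ΔTreg. The first 3 groups overlapped, and the lowest ΔTreg mouse was far above their highest. The log2 fold change of ΔTreg was 2.83 over control (SE 0.330; edgeR adjusted p = 0.000166) and 3.43 over ΔLTreg (SE 0.294; edgeR adjusted p = 2.33e-05). Between ΔLTreg and control the log2 fold change was -0.60 (SE 0.380; edgeR adjusted p = 0.425), with overlapping mice.

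Cd8a and Cd8b1 encode the alpha and beta chains of CD8 and lie 35932 bp apart on chromosome 6, on the same strand. Cd8a was counted 0 and 2 times in control, 0, 3 and 1 times in ΔETreg, 1, 1 and 0 times in ΔLTreg, and 238, 236 and 296 times in ΔTreg. Cd8b1 was counted 1 and 0 times in control, 0, 1 and 0 times in ΔETreg, 1, 0 and 1 times in ΔLTreg, and 109, 107 and 125 times in ΔTreg. Outside ΔTreg both genes were thus at or near the limit of detection, and differences among those 3 groups were not detectable at this depth.

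Pooled over mice, Cd8a was 231 times as frequent per read in ΔTreg as in control (95% exact interval 63.8 to 1913), from 770 counts against 2. Cd8b1 was 205 times as frequent (95% exact interval 36.5 to 8113), from 341 counts against 1. These are conditional binomial intervals of the Clopper-Pearson type. They cover counting error only, as reads without molecular identifiers are not independent molecules. Both control counts of Cd8a came from 1 mouse, replicate 2. Without it control had 0 counts, and the lower 95% exact limit of the ratio was 66.6, and without control replicate 1 the ratio was 108 (95% exact interval 29.9 to 895). For Cd8b1 the control count came from replicate 1. Without that mouse control had 0 counts, with a lower 95% exact limit of 25.8, and without control replicate 2 the ratio was 109 (95% exact interval 19.4 to 4317). Against ΔLTreg the pooled ratio was 392 for Cd8a (95% exact interval 108 to 3244) and 174 for Cd8b1 (95% exact interval 47.7 to 1440). Over the mice left out in turn, the ratio to ΔLTreg ran from 255 (without ΔLTreg replicate 3) to 565 (without ΔLTreg replicate 2) for Cd8a and from 125 (without ΔLTreg replicate 2) to 226 (without ΔLTreg replicate 3) for Cd8b1.

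By counts, the CD8 to CD4 balance was higher in the ΔTreg mice than in the others. Of the summed Cd8a and Cd4 counts of a mouse, Cd8a made up 58.5% (95% Clopper-Pearson interval 53.5 to 63.3), 48.3% (43.8 to 52.8) and 47.2% (43.2 to 51.2) in the 3 ΔTreg mice. In control the share was 0 of 41 counts (interval up to 8.60%) and 2 of 24 counts, or 8.33% (1.03 to 27.0). In ΔETreg it was 0 of 38 counts, 3 of 47 and 1 of 17, and in ΔLTreg 1 of 34, 1 of 22 and 0 of 16. The highest upper bound among these 8 mice was 28.7%, so that the intervals of the ΔTreg mice lay apart from all of theirs. These intervals cover counting error within a mouse and no spread between mice, so their separation is not a test between groups.

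Per kb of exon, which is needed to compare levels between genes, Cd8a made up 61.0%, 50.8% and 49.8% of the sum of Cd8a and Cd4 in the 3 ΔTreg mice. The log2 ratio of Cd8a to Cd4 counts, with 0.5 added to each, averaged 0.08 ± 0.36 in ΔTreg (SD, n = 3), against -4.77 ± 2.27 in control (SD, n = 2), -4.46 ± 1.56 in ΔETreg and -4.46 ± 0.60 in ΔLTreg (SD, n = 3 each). The difference of ΔTreg from control was 4.85, and 3.58 with 2 added to each count. It was 3.25 without control replicate 1 and 6.45 without control replicate 2. The exact permutation test over the 4 groups gave p = 0.0186 (two-sided, adjusted p = 0.0279 over 6 ratios). It is not counted as support for a shift, since Cd8a passed the filter only through the ΔTreg libraries. Outside ΔTreg no mouse had more than 3 counts of Cd8a, so those ratios depend on the added 0.5. The same exact permutation test gave p = 0.0522 without ΔTreg replicate 1, the mouse with the highest share. For each pair of groups with ΔTreg, the exact p was 0.1, the smallest that 3 mice against 2 or 3 against 3 allow (adjusted p = 0.2 over 6 pairs).

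**Figure D2:**
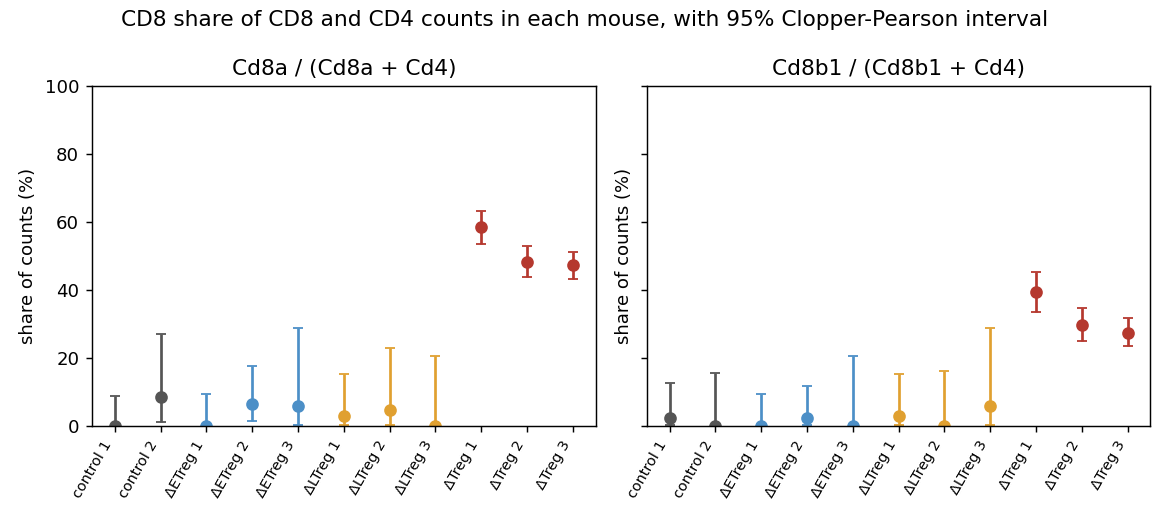
Share of Cd8a (left) and Cd8b1 (right) counts, in percent, in the sum of that gene and Cd4 in each mouse, with 95% Clopper-Pearson intervals. The 3 ΔTreg mice stand at 47.2% to 58.5% for Cd8a and 27.4% to 39.2% for Cd8b1, and each of the other 8 mice at or below 8.33% for both.

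Cd8b1, which is carried by conventional CD8 T cells but not by the dendritic cells that can express Cd8a, gave the same order. Its share of Cd8b1 and Cd4 counts was 39.2%, 29.7% and 27.4% in the ΔTreg mice, and at most 5.88% in any other mouse. The intervals of ΔTreg replicates 2 and 3 (25.1 to 34.7 and 23.4 to 31.8) overlapped with that of ΔLTreg replicate 3 (0.149 to 28.7), so that for Cd8b1 the shares of single mice were not all apart. Per kb of exon, Cd8b1 made up 63.7%, 53.5% and 50.7% of the sum of Cd8b1 and Cd4 in the ΔTreg mice, above the level of Cd4, whereas by counts it was below. The log2 ratio of Cd8b1 to Cd4 averaged -1.09 ± 0.41 in ΔTreg (SD, n = 3) and -5.14 ± 0.50 in control (SD, n = 2), and the 4-group exact permutation test gave p = 0.00857 (adjusted p = 0.0279). This test is not counted as support either, since Cd8b1 passed the filter only through the ΔTreg libraries. Outside ΔTreg it had at most 1 count in a mouse, so those ratios depend on the added 0.5. Within CD8, the log2 ratio of Cd8b1 to Cd8a was close to equal in the 3 ΔTreg mice, at -1.17 ± 0.06 (SD, n = 3) by counts, and at 0.17, 0.15 and 0.05 per kb of exon, where Cd8b1 was the higher of the 2. Elsewhere it rested on 3 or fewer counts of each gene, and its 4-group exact test (p = 0.767) says nothing about a difference.

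Both coreceptors were higher relative to the CD3 chains in ΔTreg. The log2 ratio of Cd4 to summed CD3 counts averaged -1.81 in ΔTreg, against -3.15 in control, -3.24 in ΔETreg and -4.14 in ΔLTreg (4-group exact permutation p = 0.0151, adjusted p = 0.0279). The 3 ΔLTreg mice were below both control mice and below 2 of the 3 ΔETreg mice in this ratio, with an exact p of 0.1 against control, again the smallest possible. For Cd8a and Cd8b1 summed, the ratio to CD3 averaged -1.20 in ΔTreg and lay at -7.13 in control, -7.58 in ΔETreg and -7.82 in ΔLTreg (4-group exact permutation p = 0.0129, adjusted p = 0.0279). That test is not counted as support, since both CD8 genes passed the filter only through the ΔTreg libraries.

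Foxp3, the gene whose promoter drives the DT receptor, was examined in each library as a check of the depletion. It was counted 20 and 14 times in control, 10, 16 and 11 times in ΔETreg, 23, 13 and 13 times in ΔLTreg, and 9, 19 and 18 times in ΔTreg. These groups overlapped, except that the ΔETreg mice, at 0.348 to 0.526 CPM, lay just below the control mice, at 0.558 and 0.701 CPM. Foxp3 passed the edgeR test in none of the 6 comparisons (adjusted p from 0.546 to 1.00, at unadjusted p from 0.157 to 0.827). Counts this low in whole skin do not measure how many Tregs were lost. Its exons are shared in part with 4 other genes, which adds to the uncertainty of so low a count.

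The ratio of Foxp3 to Cd4 was examined after the values had been seen, and is given without a test. There were 20 Foxp3 counts to 41 of Cd4 and 14 to 22 in the control mice, against 9 to 169, 19 to 253 and 18 to 331 in the ΔTreg mice. The log2 ratio averaged -4.01 in ΔTreg, while it was -0.83 in control, -1.28 in ΔETreg and -0.49 in ΔLTreg. Of the 2 genes, Cd4 passed the edgeR test between ΔTreg and control and Foxp3 did not.

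Lck, the Src family kinase that binds the tails of CD4 and CD8, stood at 2.56 and 3.11 CPM in control, 3.52, 2.92 and 3.30 CPM in ΔETreg, 3.43, 3.53 and 2.98 CPM in ΔLTreg, and 12.4, 9.32 and 13 CPM in ΔTreg. The first 3 groups overlapped, and ΔTreg stood apart. The log2 fold change of ΔTreg was 2.03 over control (SE 0.178; edgeR adjusted p = 2.39e-05) and 1.81 over ΔLTreg (SE 0.149; edgeR adjusted p = 1.83e-05).

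Zap70, the kinase that docks on phosphorylated CD3 and zeta, was at 1.26 and 1.08 CPM in control, 0.592, 1.05 and 1.03 CPM in ΔETreg, 1.58, 1.41 and 1.41 CPM in ΔLTreg, and 7.16, 6.56 and 7.08 CPM in ΔTreg. Its ΔTreg mice were the closest to each other of any member relative to their mean, at 6.93 ± 0.325 CPM (SD, n = 3). ΔTreg exceeded control by a log2 fold change of 2.56 (SE 0.206; edgeR adjusted p = 1.41e-05). The 3 ΔETreg mice were all below the ΔLTreg mice, at a log2 fold change of -0.73 (SE 0.203) that fell short of the threshold (edgeR adjusted p = 0.0597).

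Outside the ΔTreg group, the 7 members with counts in every library gave no call in the main test. Cd8a and Cd8b1 are left out, since 3 or fewer counts per library could hardly give a call. Between ΔETreg and control, edgeR and DESeq2 each called 0 of the 7, and 0 had an unadjusted p under 0.05 in edgeR. Of all genes tested, 0.00544% were called higher and 0% lower. Between ΔLTreg and control, edgeR and DESeq2 again called 0 of the 7, where 1.86% of all genes were called higher and 2.69% lower. In that comparison 2 members, Cd3e and Cd247, reached an unadjusted p under 0.05 in edgeR. Neither tool called any of the 7 between ΔETreg and ΔLTreg, where 3.27% of all genes were called higher in ΔETreg and 3.12% lower. There, 3 members, Cd3e, Cd247 and Zap70, had an unadjusted p under 0.05, each with the lower level in ΔETreg. With shares this low among all genes, 0 calls of 7 do not set the members apart.

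The order of the members by CPM per kb of exon differed between ΔTreg and the rest. In control, Cd3g led at 1.66 ± 0.183, followed by Lck at 0.967 ± 0.133 and Cd3e at 0.883 ± 0.326 CPM per kb (SD, n = 2), the last 2 overlapping. Cd4 was seventh at 0.287 ± 0.0981 CPM per kb (SD, n = 2), below Cd3d, Cd247 and Zap70, and the CD8 genes were last, at 0.0118 for Cd8b1 and 0.0110 for Cd8a, which overlapped each other. In ΔTreg, Cd3g and Lck overlapped at the top, at 4.0 ± 0.217 and 3.95 ± 0.674 CPM per kb (SD, n = 3), and Cd3d, Cd8b1, Cd3e, Cd8a, Zap70 and Cd4 followed in this order between 2.92 and 2.07, each overlapping with the one above it. Cd247 was last, at 0.899 ± 0.196 CPM per kb (SD, n = 3), and stood apart from the rest. Exon length here is the union of the annotated exons of a gene, so that transcripts that use only part of it read low on this scale.

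The constant regions of the T cell receptor show which receptor the CD3 chains could serve. Trac, the constant region of the alpha chain, was counted 3 and 5 times in control, 3, 4 and 2 times in ΔETreg, 9, 7 and 2 times in ΔLTreg, and 130, 138 and 158 times in ΔTreg. Trdc, that of the delta chain, was counted 87 and 105 times in control, 83, 98 and 82 times in ΔETreg, 161, 124 and 148 times in ΔLTreg, and 111, 170 and 145 times in ΔTreg, so that ΔLTreg and ΔTreg overlapped. Trac passed the filter only through the ΔTreg libraries, and its test is not given. For Trdc the log2 fold change of ΔTreg over control was 0.40 (SE 0.151), which did not pass (edgeR adjusted p = 0.0832). Of the 6 constant region genes other than Trac, Trdc among them, 4 were called higher in ΔTreg than in control by edgeR and 3 by DESeq2, among them Tcrg-C2 of the gamma chain at 1.65 (SE 0.327; edgeR adjusted p = 0.00456), and edgeR called 0 lower, where 12.1% of all genes were called higher and 9.39% lower. Trbc1 and Trbc2, and the Tcrg-C genes among themselves, are near-identical copies between which the counting could split reads, and their single values are uncertain.

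Signalling partners of the receptor followed the members in ΔTreg. Of 26 partner genes, 25 passed the filter without the ΔTreg libraries, and 21 of these were higher in ΔTreg than in control by edgeR and 20 by DESeq2, with a median log2 fold change of 1.86, and edgeR called 0 lower. The shares of all genes tested were 12.1% higher and 9.39% lower. The other gene, Cd6, was counted at most 4 times in any mouse outside ΔTreg and 91 to 139 times within it. Among those with the smallest p was the adaptor Skap1, at a log2 fold change of 2.92 (SE 0.304; edgeR adjusted p = 7.94e-05). The most abundant was Plcg1, which skin cells other than T cells express as well and which made up 32.5% of the summed level of the list. In ΔETreg and ΔLTreg against control, edgeR and DESeq2 called 0 of the 26, with 0 and 3 at an unadjusted p under 0.05. Of all genes tested, edgeR called 0.00544% higher and 0% lower in ΔETreg, and 1.86% higher and 2.69% lower in ΔLTreg.

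Genes of CD4 lineage and helper cells, and of CD8 lineage and cytotoxic cells, were listed as well. The cytotoxic genes are not specific to CD8 T cells. The shares of all genes were 12.1% (higher in ΔTreg) and 9.39% (lower). Of 10 genes of CD4 lineage and helper cells, 8 passed the filter without the ΔTreg libraries, and 5 of these were higher in ΔTreg than in control and 0 lower by edgeR, with 5 called by DESeq2 and 6 at an unadjusted p under 0.05, and the median log2 fold change of the 8 was 0.30. Among the called genes were Tnfrsf4 at a log2 fold change of 1.24 (SE 0.148; edgeR adjusted p = 0.000201) and Il2ra at 3.02 (SE 0.464; edgeR adjusted p = 0.000976), and the transcription factor Maf, which is widely expressed, was the most abundant. The 2 genes of this list that passed only through the ΔTreg libraries were Icos and Cd40lg. Icos was counted 95 to 96 times in ΔTreg and at most 13 times in any other mouse. Cd40lg was counted 11 to 25 times in ΔTreg and at most 2 times in any other mouse. Of 13 genes of CD8 lineage and cytotoxic cells, 7 passed the filter without the ΔTreg libraries, and 5 of these were higher and 0 lower by edgeR, with 5 called by DESeq2 and 5 at an unadjusted p under 0.05, and a median of 2.82 over the 7. Granzyme B (Gzmb) was counted at most 4 times in any mouse outside ΔTreg and 593, 901 and 820 times in ΔTreg, granzyme A (Gzma) at most 5 times against 458, 529 and 536 times, and perforin (Prf1) was higher by a log2 fold change of 2.87 (SE 0.219; edgeR adjusted p = 1.06e-05). Runx3 was the most abundant gene of that list. In ΔLTreg against control, 1 of the 13, Tbx21, was called higher by edgeR (adjusted p = 0.0340) and 0 by DESeq2, beside 1.86% of all genes. Tbx21 had 1 count in each control mouse and 11, 7 and 5 counts in ΔLTreg, and passed the filter only through the ΔTreg libraries.

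Some members are carried by cells other than alpha-beta T cells, and markers of those cells were read beside them. NK cells use Cd247, Lck and Zap70. Of 6 NK cell markers only 2, Klrb1c and Ncr1, had enough counts to be tested, and both passed the filter only through the ΔTreg libraries, so that their tests are not given. The summed level of the 6 was 0.245 and 0.239 CPM in control, 0.209, 0.132 and 0.214 CPM in ΔETreg, 0.298, 0.314 and 0.251 CPM in ΔLTreg, and 1.63, 1.84 and 1.61 CPM in ΔTreg, with Klrb1c the most abundant and Klra8 never above 3 counts. How much of the Cd247, Lck and Zap70 counts, or of the granzyme and perforin counts above, came from NK cells was not tested.

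Gamma-delta T cells carry CD3 without CD4. Of 7 gamma-delta markers, 5 were tested and edgeR and DESeq2 called 0 in ΔTreg against control (2 at an unadjusted p under 0.05), beside 12.1% of all genes called higher and 9.39% lower by edgeR. The summed level was 36.0 and 40.1 CPM in control, 38.7, 39.4 and 38.1 CPM in ΔETreg, 37.9, 34.4 and 35.9 CPM in ΔLTreg and 39.1, 40.0 and 42.6 CPM in ΔTreg. Of the gamma constant regions, read with the other receptor chains, Tcrg-C2 and Tcrg-C4 were called higher in ΔTreg than in control (edgeR adjusted p = 0.00456 and 0.0198). Sox13 made up 75.4% of the summed level, and Il17a had 0 counts in all 11 mice. The delta constant region was higher in ΔTreg than in ΔETreg (edgeR adjusted p = 0.0103) and lower in ΔETreg than in ΔLTreg (edgeR adjusted p = 0.0323).

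Cd8a is also expressed by some, but not all, dendritic cells of the type termed cDC1. Outside ΔTreg, the cDC1 marker Xcr1 was counted 18 to 27 times in each mouse, and Cd8a at most 3 times. Of 7 cDC1 markers, 3 were higher in ΔTreg than in control (Itgae, Tlr3 and Batf3) and 0 lower by edgeR, beside 12.1% and 9.39% of all genes, with 3 called by DESeq2. The remaining 4 were not called by edgeR, among them Xcr1, at a mean of 0.796 CPM in control and 0.790 CPM in ΔTreg. Cadm1, also not called, averaged 34.3 CPM in control and 34.1 CPM in ΔTreg. The summed level was 54.9 and 51.1 CPM in control, 50.2, 51.4 and 49.1 CPM in ΔETreg, 54.4, 55.8 and 49.7 CPM in ΔLTreg and 72.5, 65.6 and 67.5 CPM in ΔTreg, with Cadm1 the most abundant at 59.1%. The part of cDC1 in the Cd8a counts was not tested, nor which cells carried Itgae, Tlr3 and Batf3.

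CD4 is also made by macrophages and plasmacytoid dendritic cells. Of 10 macrophage and monocyte markers, 6 were higher in ΔTreg than in control and 0 lower by edgeR, beside 12.1% and 9.39% of all genes, with 7 called by DESeq2, and the summed level was 383 and 344 CPM in control, 351, 363 and 303 CPM in ΔETreg, 305, 393 and 236 CPM in ΔLTreg and 889, 694 and 811 CPM in ΔTreg. Of 5 plasmacytoid markers 3 were tested, and all 3 had a positive log2 fold change of ΔTreg over control, with a median of 0.93. Of these, 1, Pacsin1, was called higher by edgeR and by DESeq2, with 2 at an unadjusted p under 0.05, and Cox6a2 was the most abundant gene in a summed level of 12.1 and 14.1 CPM in control, 12.2, 10.5 and 18.0 CPM in ΔETreg, 18.7, 7.45 and 27.7 CPM in ΔLTreg and 17.7, 14.1 and 20.1 CPM in ΔTreg. The part of macrophages and plasmacytoid cells in the Cd4 counts was not tested.

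Lymphoid tissue within the biopsies would carry the members together with other genes. Of 7 B cell markers 2 were tested, and 1 of these, Cd79b, passed the filter only through the ΔTreg libraries. The other was not called in ΔTreg against control by either tool, nor at an unadjusted p under 0.05. The shares of all genes called by edgeR were 12.1% higher and 9.39% lower. The summed level of the 7 markers stayed between 0.501 and 1.25 CPM over the 11 mice. Cd79b was the most abundant, and Ms4a1 had 3 counts or fewer in each mouse. Of 5 thymocyte markers, Rag1, Rag2 and Dntt had no more than 3 counts in a library, and Arpp21 made up 96.7% of the summed level and was lower in ΔTreg than in control by edgeR (adjusted p = 0.0332) but not by DESeq2. Of 6 markers of naive and lymph node T cells, 5 passed the filter without the ΔTreg libraries, of which edgeR called 0 higher in ΔTreg than in control and 1, Lef1, the most abundant, lower (3 at an unadjusted p under 0.05, and 1 called by DESeq2). Among 7 markers of keratinocytes, fibroblasts and melanocytes, which identify the tissue as skin, Col1a1 was the most abundant, 1 was higher in ΔTreg than in control and 3 lower by edgeR, beside 12.1% and 9.39% of all genes, while DESeq2 called 7 of the 7 and all 7 had an unadjusted p under 0.05 in edgeR.

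The genes whose pattern over the 11 mice was closest to that of the CD3 chains were sought among all 18375 genes tested, with the 9 members left out of the answer, by the root mean square difference of log2 CPM, with a prior count of 2, centred on each gene's mean. For the mean of Cd3d, Cd3e and Cd3g, which spanned 1.94 on the log2 scale, the nearest were Ctsw at a difference of 0.09, Cd74 at 0.13, Abcb1b at 0.14, Flt1 at 0.18 and Ciita at 0.18. Ctsw encodes a protease of cytotoxic lymphocytes, and was counted 93 and 90 times in control, 90, 112 and 85 times in ΔETreg, 166, 129 and 142 times in ΔLTreg and 259, 321 and 341 times in ΔTreg. For Cd4, which spanned 4.17, the nearest were Tnfaip6 at 0.30, Cxcr3 at 0.32 and Mgl2 at 0.32. Cd8a was at or under 3 counts in all 8 mice outside ΔTreg, where the prior count sets the level, and no nearest genes are given for it.

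Because the members moved together in ΔTreg, their promoters were read from RefSeq sequences on GRCm38.p6, in windows from 250 bases before to 50 bases after the annotated start. Of the 9 members, 7 had a window, with 3 for Zap70 and 2 for Lck, and Cd4 and Cd8b1 had none. An ETS-type motif, CAGGAAGT or its reverse complement ACTTCCTG, whose letters were chosen with these sequences in view, occurs in both Lck windows, in that of Cd3e and at 2 places in that of Cd247, and in 3.33% of all 32851 promoters. It does not occur in the windows of Cd3d, Cd3g, Cd8a or Zap70. With both strands counted, the E-box CAGGTG was found in windows of 6 of the 7 members and in 20.2% of all promoters. The RUNX-type motif TGTGGT was found in 1 window each of Lck and Zap70 and in 16.8% of all promoters. The 6 of 7 counts genes, over 10 windows, while the shares of all promoters count single windows, so they are not directly comparable. A match is a description of these letters and not a bound site. The windows with the ETS-type motif are printed here in the 5′ to 3′ direction of the gene, with the motif in capitals, namely Cd247 (chr1:165788431-165788730, plus strand), Cd3e (chr9:45009562-45009861, minus strand) and Lck (chr4:129558323-129558622 and chr4:129573592-129573891, minus strand).
Cd247: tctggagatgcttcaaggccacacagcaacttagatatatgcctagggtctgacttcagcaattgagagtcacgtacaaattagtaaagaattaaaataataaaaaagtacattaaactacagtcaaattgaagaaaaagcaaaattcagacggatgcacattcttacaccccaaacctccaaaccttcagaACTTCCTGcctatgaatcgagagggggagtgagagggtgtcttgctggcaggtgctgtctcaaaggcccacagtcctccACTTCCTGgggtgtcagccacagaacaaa
Cd3e: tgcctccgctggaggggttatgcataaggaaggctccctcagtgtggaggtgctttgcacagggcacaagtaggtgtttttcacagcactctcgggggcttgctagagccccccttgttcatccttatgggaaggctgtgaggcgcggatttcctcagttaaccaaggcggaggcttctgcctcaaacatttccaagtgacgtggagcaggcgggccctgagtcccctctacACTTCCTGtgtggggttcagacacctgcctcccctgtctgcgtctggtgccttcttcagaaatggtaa
Lck, downstream start: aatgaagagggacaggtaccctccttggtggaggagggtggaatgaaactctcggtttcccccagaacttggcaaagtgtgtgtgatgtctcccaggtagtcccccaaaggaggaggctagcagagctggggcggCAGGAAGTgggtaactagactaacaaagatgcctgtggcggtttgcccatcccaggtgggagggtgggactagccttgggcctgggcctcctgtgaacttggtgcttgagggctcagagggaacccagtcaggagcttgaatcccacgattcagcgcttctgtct
Lck, upstream start: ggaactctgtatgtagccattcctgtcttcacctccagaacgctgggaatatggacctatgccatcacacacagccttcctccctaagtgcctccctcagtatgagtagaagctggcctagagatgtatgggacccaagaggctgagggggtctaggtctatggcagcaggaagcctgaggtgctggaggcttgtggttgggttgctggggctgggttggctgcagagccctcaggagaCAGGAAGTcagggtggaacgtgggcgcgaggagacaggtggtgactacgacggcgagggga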

How the data were processed

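The authors deposited gene counts of whole-skin RNA from 11 mice, as raw counts of reads per gene. According to the submitters' notes, reads were trimmed with Trimmomatic 0.36, aligned to GRCm38 with STAR 2.5.2b and counted with featureCounts of Subread 1.5.2. The strand setting and the annotation release are not given in the sources used here, and the study tested its counts with DESeq2. The 11 count columns were matched to the labels by name.

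All 11 libraries were fitted together in edgeR 4.0.16 (R 4.3.3, limma 3.58.1) with 4 group means, TMM normalization and the filterByExpr filter, and all 6 pairs of groups were compared by quasi-likelihood tests, adjusted by Benjamini-Hochberg over the 18375 genes tested at a threshold of 0.05. CPM use the TMM-scaled library sizes. The common dispersion was 0.012. Genes with 3 or fewer counts are described by counts, pooled ratios and Clopper-Pearson intervals. Genes that pass the filter only through the ΔTreg libraries are not counted as support for a higher level in ΔTreg, a choice made after the data were seen. Tests of ratios that contain Cd8a or Cd8b1 are printed but not counted as support either. Ratios of counts, with 0.5 added to each, were compared between mice by exact permutation of the group labels, over all 4 groups and by pairs (Python 3.11.15, scipy 1.17.1, pandas 2.3.3, numpy 2.4.6). Positions and exon lengths came from the GENCODE M21 annotation of GRCm38, which holds 48970 of the 49315 gene identifiers, and promoters from RefSeq.

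The members and the lists of other genes were chosen with earlier results of these data known. Genes of a list named in the text are at most the 3 with the smallest p for ΔTreg against control among those with a mean count of at least 20, the most abundant gene of the list and markers with 3 or fewer counts in every library, and genes of like pattern are the 5 nearest to the CD3 chains and the 3 nearest to Cd4. Other names, such as Tbx21, Tcrg-C4, Ncr1 and Klrb1c, were chosen after their values were seen. The alternatives were DESeq2 1.42.0 (Wald test), edgeR on the 2 groups compared, DESeq2 size factors, scaling by total counts, no filter, at least 10 counts in every library, sex read from Xist and Ddx3y as a covariate, added counts of 0 or 2, Cd3e alone in place of the 3 CD3 chains, and each mouse left out in turn. No paired analysis was possible because the mice carry no pairing in the labels.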

Additional observations from a re-analysis of the deposited data

How the results depend on the processing

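Of 525 log2 fold changes of the members other than Cd8a and Cd8b1, recomputed under the alternatives, 509 kept their direction and side of the threshold, 1 was no longer called, 4 became called, 0 reversed while called, and 11 uncalled values changed sign. Without the filter, 1 member was higher in ΔLTreg than in control (Cd3e, edgeR adjusted p = 0.0122) and 2 were lower in ΔETreg than in ΔLTreg (Cd3e, -0.50, and Zap70, -0.72), and with 1 mouse left out 0 to 1 members were higher in ΔLTreg than in control; a lone control mouse is then assumed to vary like the other groups. With 2 added to each count, ΔTreg minus control was 3.58 for Cd8a/Cd4, 2.63 for Cd8b1/Cd4 and 5.10 for CD8/CD3, ΔTreg minus ΔLTreg 2.14 for Cd8b1/Cd4 and 5.74 for CD8/CD3, and ΔTreg minus ΔETreg 2.73 and 5.25, so these sizes depend on the added count while their direction did not change. With 0 added, ratios with counts of 0 had no value. With Cd3e alone, the 4-group exact p for Cd247/CD3 was 0.128 and ΔLTreg minus control -0.0414. With 1 mouse left out, differences from control in Cd8a/Cd4 ran from -1.29 to 1.91 for ΔETreg, -1.29 to 1.92 for ΔLTreg and 3.25 to 6.45 for ΔTreg, with a 4-group exact p of 0.0108 to 0.0522. Those in Cd8b1/Cd8a ran from -2.52 to 1.39, -1.58 to 2.32 and -2.75 to 1.16, and the 4-group exact p of Cd247/CD3 from 0.00889 to 0.0703. The cause was not tested. The alternatives for the Foxp3/Cd4 ratio were chosen after seeing the data. Cd8a and Cd8b1 had no value with 10 counts required in every library, nor between groups without ΔTreg in edgeR on 2 groups. Depth limits both outside ΔTreg, where no library held more than 3 counts of either.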
